A study of Drosophila melanogaster with 2 samples.

Results

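Peaks of CG14965-eGFP at divergent promoters numbered 208 of the 1302 peaks that the authors' optimal list holds on dm6 (15.98%, 95% Wilson interval 14.1 to 18.1%). A divergent promoter is a place where the transcription start sites (TSSs) of 2 different genes lie on opposite strands, point away from each other and are at most 1000 bp apart. A peak was counted here when its summit, the base of highest signal, lay within 500 bp of such a TSS. Genes came from the Ensembl BDGP6 annotation without transposable elements. All 208 lay among the 587 peaks with a summit within 500 bp of any TSS, of which they made up 35.4% (31.7 to 39.4%). The other 379 promoter peaks had no divergent partner.

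The study made a chromatin immunoprecipitation with sequencing (ChIP-seq) profile of whole Drosophila melanogaster embryos, 0 to 24 h old and of both sexes, from a stable transgenic line. In that line the protein of CG14965 carries GFP at its C terminus, and an antibody to GFP pulled down chromatin that had been sonicated to 200 to 800 bp. Which promoter drives the fusion, and in which cells it is made, the sources used here do not say. There is 1 group of 2 biological replicates, numbered 3 and 4, from separate biosamples of the same line, and no comparison between conditions. The control library that the authors used in peak calling was not used here. The lists hold no read numbers, so the depth is unknown, and the intervals below cover the counting of peaks or promoters alone. Peaks are not replicates, so no test was made between groups of peaks.

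In the compact fly genome many genes stand head to head and share the short stretch between their starts, where both sets of transcription machinery assemble. Genes needed in every cell, such as those for ribosomes, mitochondria and RNA processing, are common among them. The DNA replication-related element (DRE), which the factor DREF binds, and the element of the boundary protein BEAF-32 are known from promoters of this kind. CTCF, an insulator protein, binds another element that is known from borders of chromatin domains.

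The stretches between the paired TSSs are printed for 8 of these peaks, on the plus strand of dm6 and 5′ to 3′, up to 200 bases around the summit and without any annotated transcript. The sequences are those of the RefSeq Release 6 genome. Capitals mark words of the motifs with 7 or more letters and the word GAAATGTA (TACATTTC on the other strand). The first 3 are the strongest peaks with a summit between the TSSs. The 2 strongest hold a CTCF core, which reads AGATGGCGC or, on the other strand, GCGCCATCT.
fax/Serinc at chr3L:16412396-16412595: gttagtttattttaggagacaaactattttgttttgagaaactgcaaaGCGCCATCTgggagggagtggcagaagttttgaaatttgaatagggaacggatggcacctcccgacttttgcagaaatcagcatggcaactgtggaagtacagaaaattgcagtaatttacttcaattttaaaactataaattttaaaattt
LSm7/BuGZ at chr2L:16743101-16743237: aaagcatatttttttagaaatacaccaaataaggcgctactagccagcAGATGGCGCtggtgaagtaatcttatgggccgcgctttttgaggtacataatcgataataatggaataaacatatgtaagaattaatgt
Ugalt/eIF2Bbeta at chrX:2703853-2703973: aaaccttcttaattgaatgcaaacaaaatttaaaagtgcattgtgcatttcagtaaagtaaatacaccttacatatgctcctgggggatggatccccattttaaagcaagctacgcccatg
The next 3 hold the word GAAATGTA, and the last of them also a CTCF core in another spelling, AGGTGGCGC on the other strand. Stronger members than the last that hold neither, mRpS23/CenG1A (371), Tcs5/CHMP2B (318) and AP-2alpha/ebi (306), are not printed. Marked words are thus more common here than among all members, where this word lay within 50 bp of 4.81% of summits.
Art3/mRpS10 at chr3R:15229438-15229637: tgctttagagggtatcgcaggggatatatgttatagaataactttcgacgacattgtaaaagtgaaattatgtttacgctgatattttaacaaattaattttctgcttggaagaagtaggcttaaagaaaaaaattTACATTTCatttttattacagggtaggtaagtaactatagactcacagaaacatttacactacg
CG7601/CIA30 at chr3R:29736751-29736950: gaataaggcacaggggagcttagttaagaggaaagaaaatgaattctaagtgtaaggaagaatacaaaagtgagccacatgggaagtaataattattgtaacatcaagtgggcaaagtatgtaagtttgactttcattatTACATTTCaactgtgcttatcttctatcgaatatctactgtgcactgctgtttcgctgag
Mkk4/SLIRP2 at chr3R:8650888-8651083: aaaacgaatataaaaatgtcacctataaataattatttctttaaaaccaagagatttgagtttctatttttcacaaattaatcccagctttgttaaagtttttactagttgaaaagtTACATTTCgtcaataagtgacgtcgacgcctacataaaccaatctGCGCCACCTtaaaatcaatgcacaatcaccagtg
The last 2 hold a DRE (TATCGATA) between a ribosomal protein gene and its partner, and were chosen after their values were seen.
RpL28/eIF1 at chr3L:3222961-3223130: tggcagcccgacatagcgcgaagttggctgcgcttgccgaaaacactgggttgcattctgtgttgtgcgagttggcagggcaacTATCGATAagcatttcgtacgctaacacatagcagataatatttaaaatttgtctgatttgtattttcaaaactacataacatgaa
RpS25/CG4820 at chr3R:11216288-11216466: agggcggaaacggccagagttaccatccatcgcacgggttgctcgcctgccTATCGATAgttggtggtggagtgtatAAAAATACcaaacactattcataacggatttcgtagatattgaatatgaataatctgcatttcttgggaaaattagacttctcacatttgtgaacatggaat

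The strongest of the 208 peaks were those of fax/Serinc and LSm7/BuGZ, with Ugalt/eIF2Bbeta next. The signal value that the authors deposited is a score of unstated scale, so it ranks peaks within 1 list only. Values of a replicate are those of its strongest region that overlaps the peak by at least 1 bp. Between fax, a gene of axon development in the embryo, and Serinc, of a family of membrane proteins, the signal was 2309.6 in the pooled list, 1381 in replicate 3 and 954 in replicate 4. It ranked 16 of the 1302 peaks. Between LSm7, a subunit of an RNA-processing ring, and BuGZ, a zinc finger protein of the mitotic spindle, it was 1836, 1091 and 768, at rank 24. These were the only 2 members above 1000.

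The next strongest peak lay 22 bp from the TSS of Ugalt, a Golgi transporter of UDP-galactose, and 697 bp from that of eIF2Bbeta, a subunit of the exchange factor for the initiation factor eIF2. Its signal was 723, with 439 in replicate 3 and 281 in replicate 4. After mRpL41/CG8079 came Chro/Ssl1. Chro encodes a chromodomain protein of interbands and of the spindle, and Ssl1 a subunit of the general factor TFIIH. Their shared peak had 456 (221 and 227 in replicates 3 and 4), with the summit 86 bp inside Chro. The pair of PNPase, an enzyme of mitochondrial RNA, and Gprk2, a receptor kinase of Hedgehog signalling, had a peak of 432 (223 and 206). Its summit lay 67 bp inside PNPase and more than 500 bp from the TSS of Gprk2, so the peak met the rule through PNPase alone. Signal thus fell fast below the leaders: 18 members exceeded 300, and 159 of the 208 (76.4%) were below 150. The whole list fell alike, with an upper quartile of 146.3 in all 1302 peaks and 146.4 in members. The weakest member above 300, CG11309/CG7632, ranked 114 of the 1302.

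Several of the strongest peaks stood at pairs with a gene of a mitochondrial protein. Pairs with mRpL41 (498; 272 in replicate 3 and 226 in replicate 4), mRpS10 (438; 234 and 203) and mRpS23 (371; 206 and 164) ranked 66, 74 and 85. These encode mitochondrial ribosomal proteins. Their partners were CG8079, the arginine methyltransferase gene Art3 and CenG1A, a regulator of small GTPases. In the last pair the summit was 87 bp from the TSS of CenG1A and 405 bp from that of mRpS23. Of all mitochondrial ribosomal protein genes in divergent pairs 10.2% had a peak in reach, against 6.77% of all genes there. CIA30, an assembly factor of respiratory complex I, shared its peak with CG7601 (334; 186 and 147). In each of these pairs replicate 3 was above replicate 4, as in 166 of the 206 members with a region in both replicates (80.6%). Over all optimal peaks this held for 1070 of 1293 (82.8%), so it is not particular to these pairs.

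The gene of the tagged protein itself forms a divergent pair. The TSS of CG14965 lies 725 bp from that of Hsp83, which encodes the Hsp90 chaperone, on 3L. The peak at 3192985 to 3193223 had its summit 113 bp upstream of Hsp83 and 612 bp upstream of CG14965, so it met the rule through Hsp83 alone. Its signal was 374, with 222 in replicate 3 and 144 in replicate 4. Whether the inserted transgene bears on this value was not tested.

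The remaining pairs among the 20 strongest had signals from 291 to 337. They were Pdrg1/Pal1 (337), Ripalpha/RpL7 (318), Tcs5/CHMP2B (318), Fbw5/CG9147 (309.6), tank/CG12194 (308), AP-2alpha/ebi (306), Atat/Shc (304), CG11309/CG7632 (300.9), CG5757/CG5098 (298) and RpS27/Nup37 (291), by pooled signal value. They include CHMP2B of the membrane-cutting ESCRT complex, the clathrin adaptor gene AP-2alpha, the tubulin acetyltransferase gene Atat and the nuclear pore gene Nup37. In replicate 3 these 10 ran from 144 to 194 and in replicate 4 from 112 to 155.

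The median signal of all 208 was 101 (69.8 to 2309.6), against 108 in promoter peaks without a divergent partner and 101 in all 1302 peaks. In replicate 3 the members had a median of 59.7 (23.4 to 1381), and in replicate 4, where 206 had a region, 45.0 (13.1 to 954). Of the 208 members 177 (85.1%, 79.6 to 89.3%) lay among the 1302 highest regions of replicate 3, near the 84.2% of all peaks. For replicate 4 the count was 159 (76.4%, 70.2 to 81.7%), near the 76.1% of all peaks. Both replicates held 132 members (63.5%) among their highest regions, replicate 3 alone 45, replicate 4 alone 27 and neither 4. Of all 1302 peaks both held 834 (64.1%), a close share, replicate 3 alone 262, replicate 4 alone 157 and neither 49. Spearman's rho of the replicate signals was 0.606 across the 206 members, a description over peaks that were selected on the pooled signal.

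**Figure D1:**
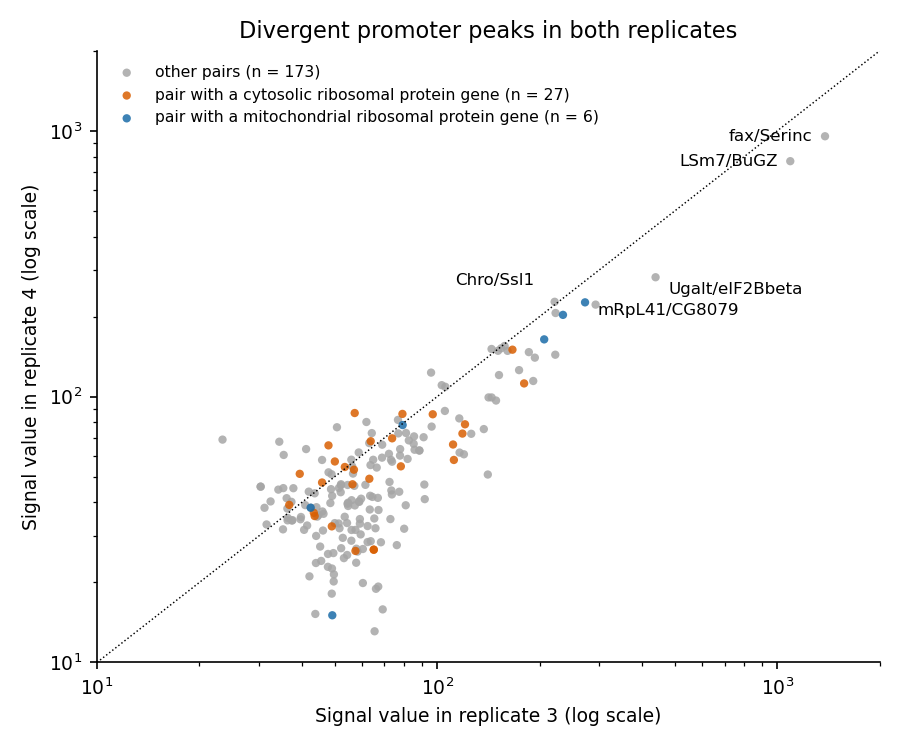
Signal value of each divergent promoter peak in replicate 3 (x axis) and replicate 4 (y axis), both on log scales without a stated unit, for the 206 peaks with a region in both; the dotted line marks equal values. Pairs with a ribosomal protein gene are coloured, and fax/Serinc and LSm7/BuGZ stand apart at the top. Below the line lie 166 peaks (80.6%), against 82.8% of all optimal peaks with a region in both.

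By the ratio of their signals the replicates differed most at weak peaks. The scale and depth of the lists are unknown, so a ratio also carries any offset between the 2 lists. The ratio of replicate 3 to replicate 4 had a median of 1.29 in members, against 1.38 over all optimal peaks. It reached 4.998 between TppII, a peptidase gene, and ND-MWFE of respiratory complex I (65.5 against 13.1). It was 4.37 at CG10068/CR42875 (69.2 against 15.8) and 3.49 between ball, a histone kinase gene, and the histone variant gene His2Av (66.1 against 18.9). The smallest ratios were 0.339 at PAPLA1/Rbsn-5 (23.4 against 68.9), 0.508 at dpa/didum (34.3 against 67.7) and 0.586 at Trmt6/Ent2 (35.4 against 60.3). All 6 had pooled signals between 81.9 and 101. Within the lists of replicates 3 and 4, TppII/ND-MWFE ranked 574 and 26530, and PAPLA1/Rbsn-5 4782 and 292. A pair of members, smp-30/jvl and 2 transfer RNA genes for arginine (tRNA:Arg-CCT-1-2 and tRNA:Arg-CCT-1-3), had no region in replicate 4 at all, with 78.3 and 64.9 in replicate 3.

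Most divergent promoters had no peak. The annotation gave 3434 divergent gene pairs, and 228 of them (6.64%, 5.85 to 7.52%) had a peak in reach, more than the 208 peaks because 22 peaks had several pairs within 500 bp. By the TSS nearest the summit the peaks were assigned to 204 pairs, of which 4 have 2 peaks each, among them Pax/Alp12 and Fur1/Vps33B. A candidate region, one of the 30000 pooled peaks and background regions, lay at 2017 pairs (58.7%). Of the 2439 candidate regions at divergent promoters 208 were optimal peaks (8.53%, 7.48 to 9.70%). The share was 7.94% of candidate regions at all promoters, 7.65% (6.94 to 8.42%) at promoters without a divergent partner and 4.34% of all candidate regions. Per candidate region, divergent promoters and promoters without a partner thus had close shares with overlapping intervals. Per gene the shares were farther apart, with 431 of 6371 genes of divergent pairs (6.77%) and 325 of 11793 genes outside such pairs (2.76%). A peak at a divergent pair counts there for both genes.

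Pairs of protein-coding genes had a peak in 192 of 2667 cases (7.20%, 6.28 to 8.24%), and pairs with a gene of another kind in 36 of 767 (4.69%, 3.41 to 6.43%). By assigned pair, 183 of the 208 peaks stood between coding genes, 20 between a coding and a long noncoding or antisense RNA gene, and 5 in other pairs. At the 23 peaks where a coding and a noncoding gene or pseudogene met, the summit was nearer to the coding TSS in 10. Of 25 pairs of a coding gene and a small nucleolar RNA gene 6 had a peak in reach. Small nucleolar RNAs are cut from introns of host genes, so these starts are ends of processed RNAs, and no peak had such a pair as its assigned pair.

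The X chromosome held few of the members. It carried 21 of the 208 (10.1%, 6.70 to 14.9%), against 14.9% (13.8 to 16.2%) of all divergent gene pairs and 19.0% (15.4 to 23.3%) of promoter peaks without a divergent partner. On X, 22 of 513 pairs had a peak in reach (4.29%, 2.85 to 6.41%). On 2L, 2R, 3L and 3R the share was 6.53%, 6.90%, 7.99% and 7.11%, with intervals from 4.92 to 10.4% that overlap that of X. On chromosome 4 none of 25 pairs had a peak, which allows a share of up to 12% (3 counts of the total).

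The paired TSSs at the 208 peaks were a median of 308 bp apart, with the middle 50% between 221 and 516.5 bp (range 19 to 984 bp). Of the gene pairs 1 to 100 bp apart 7.41% had a peak, of those at 101 to 200 bp 4.92%, and of those at 201 to 300 bp 8.31% (6.44 to 10.7%). At 301 to 400, 401 to 500, 501 to 750 and 751 to 1000 bp the shares were 6.57%, 5.06%, 5.98% and 7.41%. The intervals of these shares overlap, from 3.18% at the lowest to 10.7% at the highest bound. Whether the shares differ between spacings was not tested. Of the members 162 had both TSSs within 500 bp of the summit, and 74 regions (35.6%) covered both TSSs.

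Summits lay mainly in the space between the starts. This was so for 149 of the 208 peaks (71.6%, 65.2 to 77.3%), with 31 on the side of the minus-strand gene and 28 on that of the plus-strand gene. Among the 2179 candidate regions at divergent promoters outside the peaks, 748 summits (34.3%, 32.4 to 36.3%) lay between the TSSs. The candidates include several regions at the same pair, as at CG33635/spen. They also include regions beside a peak of the same pair, as at CG4297/MED15, which by definition do not overlap that peak. How much such regions add to the difference was not tested. Summits were a median of 85 bp from the nearer TSS of the pair in the peaks and 149 bp in the candidates. From the midpoint between the TSSs the median was 99 bp against 302 bp. In pairs 201 to 300 bp apart, 50 of 52 peak summits lay between the TSSs, a median of 45.8 bp from the midpoint, against 37.6% of candidates, a median of 218.5 bp from it. In pairs 1 to 100 bp apart, by contrast, 3 of 26 peak summits (11.5%) and 13.2% of candidate summits lay between the TSSs. In pairs 101 to 200 bp apart the shares were 60% and 25.2%, at 301 to 400 bp 82.4% and 34.01%, and at 401 to 500 bp 89.5% and 37.9%. At 501 to 750 bp they were 70.6% and 38.3%, and at 751 to 1000 bp 65.2% and 42.2%.

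Among the candidates the strongest had more summits between the starts. The 208 strongest of the candidates outside the peaks, with signals of 49.4 to 69.6, had 128 summits (61.5%, 54.8 to 67.9%) between the TSSs and a median of 127.75 bp from the midpoint. Among the members, 78 of the 104 weaker and 71 of the 104 stronger had the summit between the TSSs. The summit of each replicate's own region lay between the TSSs in 144 of 208 peaks (69.2%) in replicate 3 and in 148 of 206 (71.8%) in replicate 4. The median distance between the 2 replicate summits was 33.5 bp. How much the weaker signal of the candidates adds to the scatter of their summits was not tested.

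**Figure D2:**
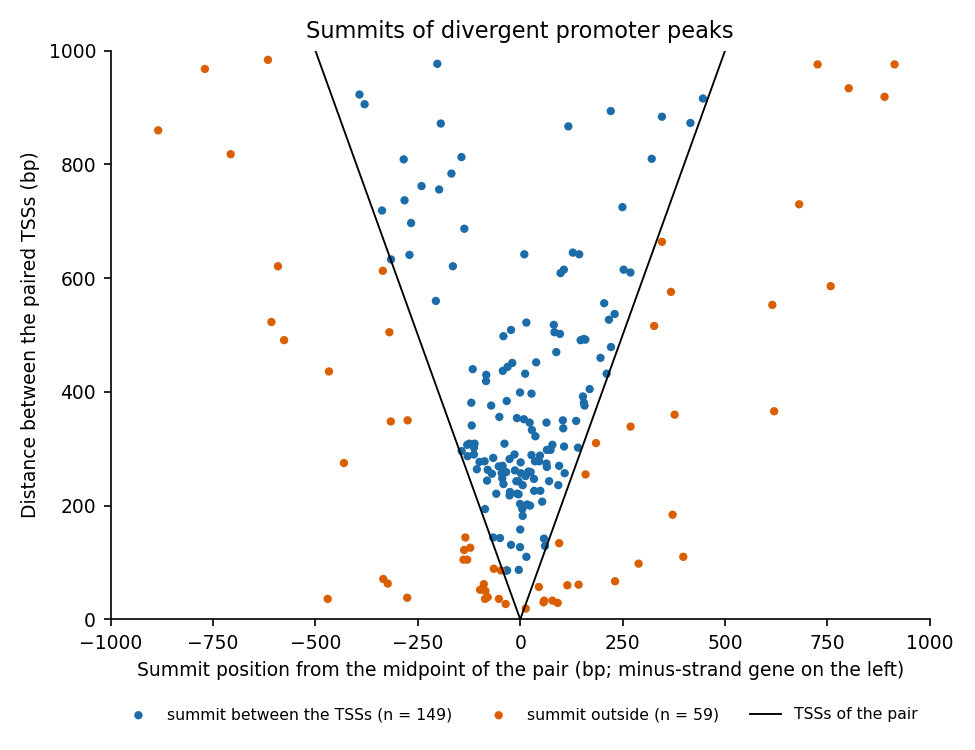
Summit of each of the 208 divergent promoter peaks by its distance from the midpoint of the pair (x axis, bp, minus-strand gene on the left) and the distance between the paired TSSs (y axis, bp); the black lines mark the TSSs. The 149 summits between the TSSs fill the wedge and 59 lie outside it, among them most of those in pairs up to 100 bp apart.

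**Figure D3:**
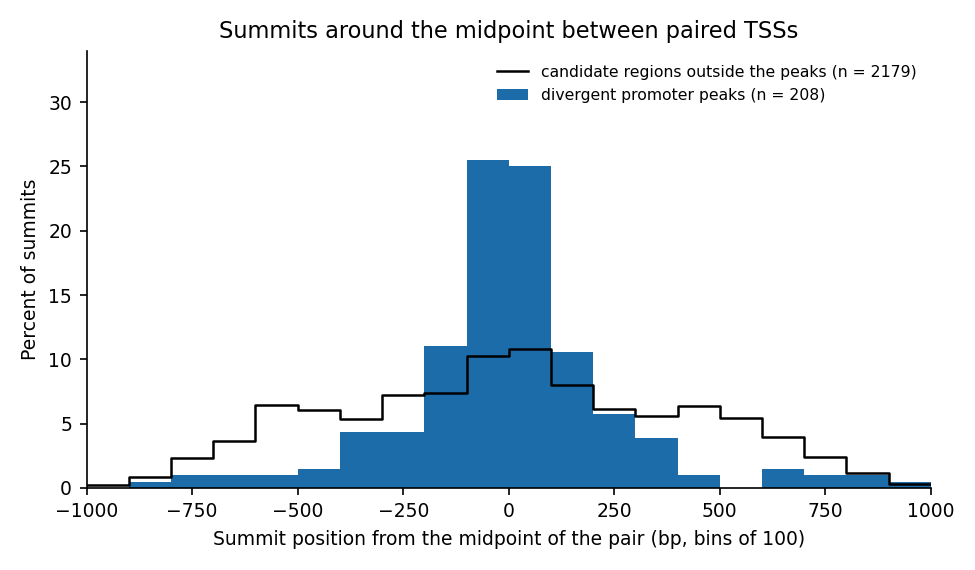
Percent of summits in bins of 100 bp (y axis) by distance from the midpoint of the pair (x axis, bp), as bars for 208 divergent promoter peaks and as a line for 2179 candidate regions outside the peaks. The 2 bins around the midpoint hold 25.5% and 25% of peak summits against 10.2% and 10.8% of candidate summits.

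Cytosolic ribosomal protein genes were the largest group of housekeeping genes among the members. Of 86 such genes on the list 56 belong to a divergent pair, and 26 of these (46.4%) had a peak in reach, against 6.77% of all 6371 genes in divergent pairs. Of the 30 outside divergent pairs 9 (30%) had a promoter peak, against 2.76% of all genes outside such pairs. The list was drawn up with earlier results of these data known, so its share is not independent support. A total of 27 peaks stood at 26 such pairs, and no pair held 2 genes of the list.

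RpL7, paired with the replication protein importer gene Ripalpha, had the highest signal of this group, 318 (166 in replicate 3 and 150.1 in replicate 4). RpS27 with Nup37 had 291 (180.1 and 112), RpLP0 with CG7130 199 (121 and 78.7), and RpL13A with the gene Dph4 189.7 (97.0 and 85.8). At the low end RpL17, paired with lncRNA:CR44895, had 71.9 (36.7 and 39.1). Replicate 4 was above replicate 3 at some, such as RpL28 with the initiation factor gene eIF1 (145; 57.2 and 86.7). The median of the 27 was 112, within the middle 50% of all members (82.1 to 146).

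At these pairs the summit kept to the ribosomal protein gene. It was nearer to that gene's TSS than to the partner's in 23 of 27 peaks and within 100 bp of it in 24. It lay upstream of that TSS in 23, with a median of 43 bp (from 42 bp downstream to 232 bp upstream), while the partner's TSS was a median of 273 bp away. Over all 208 peaks 120 summits (57.7%) were within 100 bp of either TSS of the pair. At RpL8, 916 bp from msn, a kinase gene, the summit was 12 bp from the RpL8 TSS. At RpS28b, 873 bp from l(1)G0320, it was 21 bp from the RpS28b TSS. The exceptions include RpL41 with the sodium channel gene NaCP60E and RpL14 with Nelf-E, a factor of polymerase pausing, where the starts are only 182 and 127 bp apart.

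**Figure D4:**
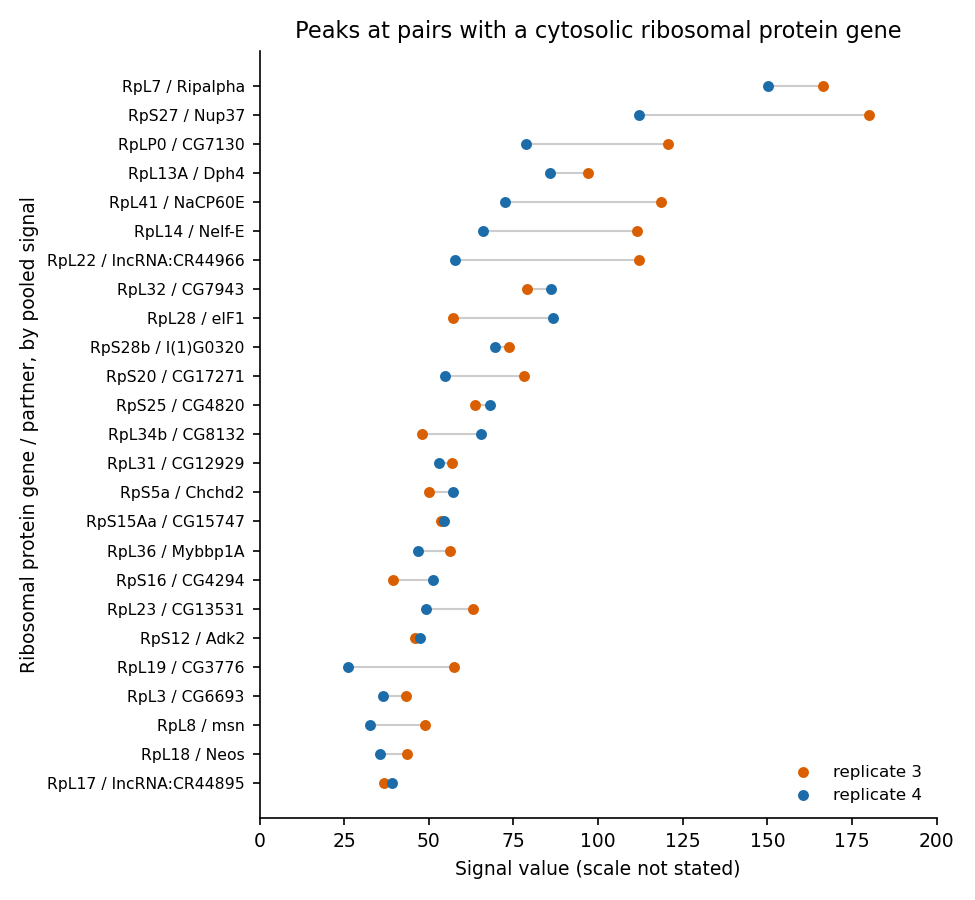
Signal value (x axis, scale not stated) in replicate 3 and replicate 4 at the 25 peaks of divergent pairs with a cytosolic ribosomal protein gene and 1 peak each, ordered by pooled signal from top to bottom. Values run from 36.7 to 180.1 in replicate 3 and from 26.3 to 150.1 in replicate 4, and the 2 replicates change order from pair to pair.

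Other gene groups had fewer bound pairs. Of the genes for mitochondrial ribosomal proteins, 6 of 59 in divergent pairs had a peak in reach (10.2%, against 6.77% of all genes there), as did 0 of 16 outside them. Their 6 peaks had a median signal of 263, and the summit was nearer the listed gene in 3 of 6 and within 100 bp of its TSS in 1. Translation factor genes had 6 of 28 (21.4%) in pairs and 3 of 25 outside. Their strongest members beside eIF2Bbeta were eIF6 (238; 142 and 99.3 in replicates 3 and 4), needed for the large ribosomal subunit, eIF1 (145) and eIF3c (103; 57.1 and 46.2). RNA polymerase II and general transcription factors had 7 of 45 (15.6%) and 1 of 18. Their strongest pairs held MED15 of the Mediator complex (153, with 61.9 and 80.3) and Taf4 of TFIID (101, with 65.3 and 34.8). The polymerase subunit gene Polr2H (93.2) and MED30 (87.8) came next. At MED15 the summit lay 263 bp from the TSS of its partner CG4297 and 550 bp from that of MED15, beyond the 500 bp window. In this list and in that of translation factors the summit was nearer the listed gene in 3 of 7 peaks each.

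The shares to set beside the following groups are 6.77% of all genes in divergent pairs and 2.76% of all genes outside them. Shares in pairs and outside are counted by unlike rules, as given above. Insulator and architectural protein genes had 2 of 13 in divergent pairs and 0 of 7 outside, with Chro the only one at an assigned pair. Cell cycle and replication genes had 3 of 20 and 0 of 14. Their pairs held the helicase subunit gene dpa (101), the licensing factor gene dup (73.2) and the E2F partner gene Dp (70.9). In the last pair the summit lay 454 bp from the TSS of lncRNA:CR43918 and 1314 bp from that of Dp, beyond the 500 bp window. Nuclear pore genes had 2 of 20 and 0 of 3, Nup37 and Nup98-96 (98.9). Splicing genes had 2 of 31 and 0 of 3, LSm7 and SmD3 (75.8). Respiratory chain and ATP synthase genes had 3 of 50 (6.00%) and 0 of 40, blw (95.9), ND-ASHI (93.4) and ND-MWFE (81.9).

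Heat shock and chaperone genes had 1 of 22 in pairs (Hsp83) and 1 of 14 outside, the aminoacyl-tRNA synthetases 1 of 22 (IleRS, 85.0) and 0 of 10, and the proteasome 1 of 26 (Rpn5, 102) and 0 of 22. Over all genes the shares were 6.77% in pairs and 2.76% outside. Histone genes had 1 of 91 (His2Av, 85.8) and 0 of 24. Transfer RNA genes had 5 of 99 (5.05%) in divergent pairs and 1 of 196 outside, with tRNA:Tyr-GTA-1-8 the strongest (167; 96.3 and 77.1). Small nucleolar and nuclear RNA genes had 6 of 39 and 5 of 267. Long noncoding and antisense RNA genes had 23 of 563 (4.09%) and 36 of 1884 (1.91%). Their strongest were asRNA:CR45928, which faces eIF6, lncRNA:CR44149 (194), lncRNA:CR43808 (188), which faces bchs, and lncRNA:CR43126 (179), which faces the forkhead factor gene fkh. In the last 2 pairs the summit lay 430 bp from the TSS of bchs and 224 bp from that of fkh. It was more than 500 bp from the noncoding TSS, so both peaks met the rule through the coding gene alone. Of the segmentation and Hox genes only 2 of 25 belong to a divergent pair and neither had a peak, while 1 of the other 23 had one.

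Sequence was searched within 50 bp of each summit on both strands for 13 known motifs. Shares were set beside those of promoter peaks without a divergent partner, of the 2179 candidates, and of windows of the same length at the midpoints of all 3434 divergent pairs. The CTCF core (AGATGGCGC, AGAGGGCGC, AGGTGGCGC or AGGGGGCGC) lay at 1 member, LSm7/BuGZ (0.481%, 0.0849 to 2.67%). It lay at 4.75% (3.03 to 7.38%) of promoter peaks without a partner, 6.95% (5.59 to 8.61%) of all other peaks, 0.505% of candidates and 0.262% of midpoints. Within 100 bp it lay at 7 members (3.37%, 1.64 to 6.78%), against 5.54% of promoter peaks without a partner, 8.23% of all other peaks and 0.918% of candidates. Beside fax/Serinc and LSm7/BuGZ these were Mkk4/SLIRP2 (246), CG2993/sgll (216), Boot/Uhg4 (145), Smg5/Ance (132) and crp/pkaap (79.8), by pooled signal value.

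The DRE (TATCGATA) lay at 10 members (4.81%, 2.63 to 8.62%), at 1.58% (0.728 to 3.41%) of promoter peaks without a partner and at 2.89% of candidates. At the midpoints of all divergent pairs it was as common, with 4.25%. Of the 10 DREs 8 stood at ribosomal protein pairs, among them those of RpL41, RpL28, RpS25 and RpS15Aa. That is 8 of 27 peaks at such pairs (29.6%, 15.9 to 48.5%) against 2 of 181 at other pairs (1.10%, 0.304 to 3.94%). Candidates outside the peaks at ribosomal protein pairs had a DRE in 4 of 40 (10%, 3.96 to 23.1%). The DRE contains the BEAF-32 element (CGATA), which lay at 20.2% of members, 16.1% of promoter peaks without a partner, 16.8% of candidates and 21.8% of midpoints.

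Motif 7, a core promoter element (CATCNCTA, CATCNCTG, CAGCNCTA or CAGCNCTG, which can overlap a CTCF core), lay at 23 members (11.1%, 7.48 to 16.05%). It lay at 6.33% (4.29 to 9.25%) of promoter peaks without a partner, 8.58% of candidates and 6.76% of midpoints. Within 100 bp the shares were 25.5% (20.04 to 31.8%), 11.3% (8.53 to 14.9%) and 15.7% (14.3 to 17.3%). GAGA (GAGAG) lay at 6.25% (3.69 to 10.4%) of members, 14.0% (10.9 to 17.8%) of promoter peaks without a partner and 10.9% of candidates. Motif 6 (GTATATTT or GTATTTTT) lay at 5.77%, 3.17% and 2.98%, and at 5.45% of midpoints.

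Within 100 bp of the summit, the intervals of GAGA and motif 7 in members and in promoter peaks without a partner did not overlap. Those of the CTCF core did (1.64 to 6.78% against 3.65 to 8.32%). Within 50 bp, of the 13 motifs the CTCF core and GAGA had intervals in these 2 sets that did not overlap, and the other 11 had intervals that did. The motifs not yet named were, in members, the initiator (TCANTN, with G or T as the first N and C or T as the second) at 22.6%, the TATA box (TATAAA) at 13.9%, the E-boxes CAGCTG at 5.29% and CACGTG at 2.88%, and the Su(Hw) element (TGCATAC) at 1.92%. Motif 1 (GGTCACACT), which lay at RpLP0, and the Zelda element (CAGGTAG) each lay at 0.481%. The corresponding shares of promoter peaks without a partner were 22.7%, 15.0%, 5.80%, 2.90%, 0.528%, 0.264% and 0.264%. At the midpoints they were 23.7%, 22.3%, 6.41%, 0.815%, 1.46%, 1.81% and 0.437%.

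**Figure D5:**
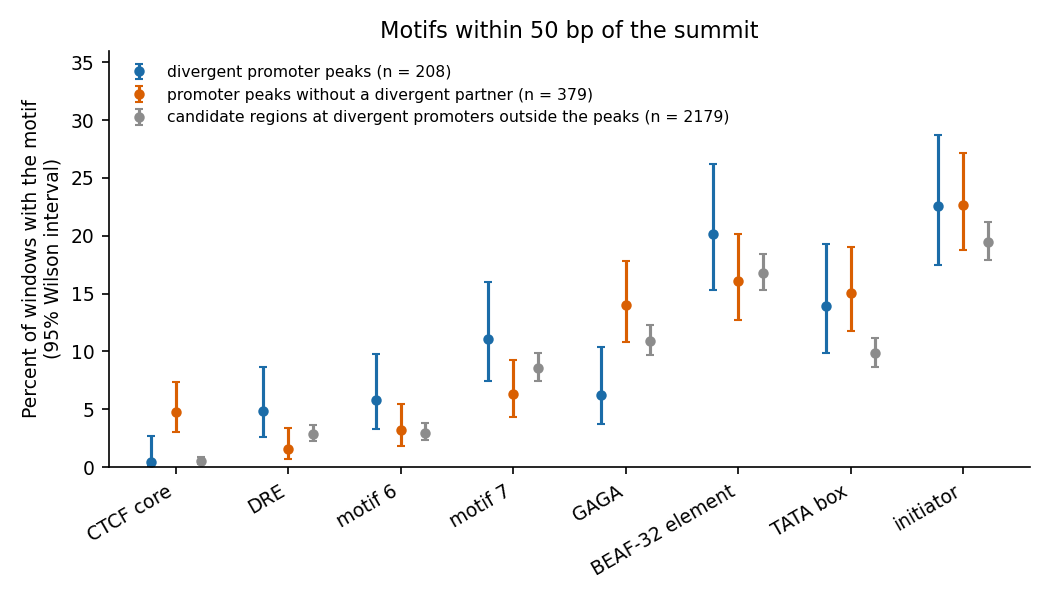
Percent of windows of 50 bp on each side of the summit that hold a motif (y axis, points with 95% Wilson intervals) for 8 of the 13 motifs, in 208 divergent promoter peaks, 379 promoter peaks without a divergent partner and 2179 candidate regions. The CTCF core is near 0 in divergent promoter peaks and candidates and at 4.75% in the other promoter peaks.

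The windows were rich in A and T. Their GC content was 37.9% ± 9.57 (SD, n = 208 peaks), against 38.1% ± 9.37 in promoter peaks without a partner and 45.5% ± 11.5 in candidates. The 208 strongest candidates had 42.2% ± 10.9. Peaks at ribosomal protein pairs had a mean of 46.9% and those at mitochondrial ribosomal protein pairs 28.2%.

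At the limits of the rule, the summits farthest from a TSS of their pair were those of Zn72D/Taf4 (465 bp, signal 101), lncRNA:CR43918/Dp (454 bp, 70.9) and lncRNA:CR45618/prtp (452 bp, 71.5). Just outside were Surf6/RhoGAP92B (507 bp, 75.7), wde/CG12935 (513 bp, 221) and CG9921/Dsp1 (527 bp, 134). The starts farthest apart among members were those of Smg5/Ance (984 bp, 132), Pax/Lectin-galC1 (977 bp, 152) and 2 long noncoding RNA genes (976 bp, 132). Just too far apart were those of CG9992/CG4239 (1012 bp, 94.8), CG5377/Nrx-1 (1024 bp, 81.4) and Snoo/CG7231 (1079 bp, 72.1).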

How the data were processed

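Of the narrowPeak lists that the authors deposited, those on dm6 were used. Per the labels' text files, a list of peaks and background regions was made for each replicate and for both together, with a control library, and an optimal list was thresholded from them by the irreproducible discovery rate. The peak caller and aligner were not given in the sources used here. The seventh column holds the signal value as the authors deposited it, a score of unstated scale. Deposited summit offsets gave the summits. Optimal peaks are identical to 1302 of the 30000 pooled regions.

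Chromosome names and lengths of the Ensembl 115 annotation and the RefSeq Release 6 genome contain all dm6 regions. All transcript starts were TSSs (23998, giving 4780 divergent TSS pairs). A peak was assigned the pair with the TSS nearest its summit, then the smaller distance. Candidates are pooled regions at divergent promoters that overlap no optimal peak. Shares carry 95% Wilson intervals (scipy 1.17.1, Python 3.11.15). The placement and the motif search were tested on simulated data.

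Members, 17 gene lists, 13 motifs and the rule for names were chosen with earlier results of these data known. Named are the 20 strongest members, up to 4 per list, those at the limits of the rule and those with extreme replicate ratios. The first sequences printed are those of the strongest members with a summit between the TSSs, outside the right arm of chromosome 2. The later ones hold the word GAAATGTA, a CTCF core or a DRE. Some stronger members without these were not printed.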

Additional observations from a re-analysis of the deposited data

How the results depend on the processing

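No paired analysis was possible because all samples belong to 1 group. The number of peaks was 184 and 246 with TSS windows of 250 and 1000 bp, 157 and 265 with TSSs at most 500 and 2000 bp apart, 205 with overlapping entries merged and 102 in the stronger 0.5 of the optimal list (fewer peaks by construction). The share of gene pairs with a peak was 5.71% and 7.78% with the 250 and 1000 bp windows, 7.57% with TSSs up to 2000 bp apart and 3.35% with the stronger 0.5 of it. The share of summits between the TSSs was 78.8% and 60.6% with those windows, which keep fewer or more distant summits. The CTCF core lay at 3.37% within 100 bp, a longer window. Among the 5000 highest regions of replicate 3 were 100% of the peaks, and among those of replicate 4 93.75%. With the highest regions of 1 replicate alone, the peaks numbered 193 to 236, the share of pairs 6.12 to 7.34%, summits between the TSSs 67.8 to 69.4% and the CTCF core 1.55 to 1.69%. Of 48 alternative values of the main results 38 stayed within the interval, or 1.5 times the count, of the reported one. The summits of single replicates and the strongest candidates were added after seeing the data. Depth is unknown and limits what the ranks of weak peaks can show.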

Other observations

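Ranked by the difference in share between peaks and candidates at divergent promoters, the best words of 8 bases were rich in A and T, led by AAATAAAA (10.1% against 3.49%) and AAATAATT (8.65% against 2.20%). The word GAAATGTA had the largest ratio among the best 10 and was picked after these values were seen, so no test was made. It lay within 50 bp of 10 member summits (4.81%, 2.63 to 8.62%), 5 of 2179 candidates (0.229%) and 0 of the 208 strongest candidates, which allows up to 1.44% (3 counts of the total). It lay at 1.06% of promoter peaks without a divergent partner, 1.40% of peaks away from promoters and 1.14% of midpoints of all divergent pairs. The 104 stronger members held 7 of the 10, among them Art3/mRpS10 (438), CG7601/CIA30 (334), Mkk4/SLIRP2 (246) and Stt3A/bves (225), by pooled signal value. It shares 7 letters with AAATGTAA, which ranked higher (6.73% against 1.38%).

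Some head-to-head pairs join genes of related work, and were picked out after their values were seen. Fer1HCH and Fer2LCH, which encode the heavy and light chains of secreted ferritin, start 98 bp apart. Their peak had 209.9 (103 and 110.4 in replicates 3 and 4), with the summit 240 bp inside Fer2LCH. RpL28 and eIF1, 381 bp apart, join a ribosomal protein and an initiation factor.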
